A study of Mus musculus with 6 samples.

Results

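The 41 genes described here are 21 genes of glycolysis and its lactate branch and 20 genes of the response to low oxygen. They were chosen by gene symbol from a list of enzymes, transporters, hypoxia-inducible factors and known hypoxia-induced genes. The choice was made with earlier results of these data known. All 41 were found among the 17092 genes measured. RNA was sequenced from mouse embryonic fibroblasts (MEFs), which are primary cells that grow out of minced embryos and attach to plastic. The MEFs came either from wild-type (WT) mice or from *Aff3ir-ORF2*-/- mice, in which the open reading frame 2 product of *Aff3ir*, a gene nested inside *Aff3*, is deleted in all cells of the body. There were 3 libraries of each genotype, labelled WT1 to WT3 and KO1 to KO3. Both groups were MEFs, the labels name no treatment, and no strain, age, oxygen level or culture of origin is given for a library. Nothing in the labels says that the libraries of a genotype came from separate embryos or cultures, so the p-values measure only the spread between these libraries.

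Glycolysis splits glucose into pyruvate in the cytosol, and in many cells part of that pyruvate is reduced to lactate and exported. The hypoxia-inducible factors (HIFs) are pairs of an alpha subunit, such as the products of *Hif1a* and *Epas1*, and the beta subunit encoded by *Arnt*. In the presence of oxygen, prolyl hydroxylases of the Egln family mark the alpha subunits for destruction by the VHL ubiquitin ligase, a step at the protein level that mRNA counts do not show. When oxygen falls, the stabilised factors raise transcription of glycolytic enzymes and of genes for mitophagy, pH control and vessel growth.

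Total counts were 17435133 to 17726034 in the WT libraries and 18209421 to 18252330 in the *Aff3ir-ORF2*-/- libraries, and TMM scaling factors lay between 0.989 and 1.02. Levels are given as read counts or as normalized CPM, counts scaled to a common library total with the TMM factor. *Aff3ir* was not analysed here, and its host gene *Aff3* had 406, 406 and 418 counts in WT1 to WT3, with 229, 186 and 209 in KO1 to KO3. *Aff3* was lower in every *Aff3ir-ORF2*-/- library (log2 fold change -1.06, SE 0.09, adjusted p = 1.23e-05). All 16 fibroblast markers searched for were detected in both genotypes, and 2 (*Lum* and *Pdgfrb*) were called higher and 2 (*Postn* and *Col6a1*) lower. By an adjusted p under 0.05 alone, 3 (18.8%) were higher and 6 (37.5%) lower, beside 29.3% and 27.5% of all tested genes. The summed level of the 16 markers was 33667 ± 27.3 CPM in WT and 30576 ± 4002 CPM in *Aff3ir-ORF2*-/- MEFs (SD, n = 3). In this sum *Fn1* rose from 8871 to 12078 CPM while *Col1a1* fell from 7366 to 5246 CPM. Markers of macrophages were also present. Their summed level over 25 genes was 25.9 to 29.2 CPM in WT libraries and 1505, 2081 and 2571 CPM in KO1, KO2 and KO3. All 24 that could be tested were higher in *Aff3ir-ORF2*-/- libraries, while *C1qa*, *C1qb*, *Fcgr1* and *Aif1* had 0 counts in every WT library. A gene at or near 0 counts in WT passes a filter on low counts only through the other genotype, so its call could only be upward. The summed level of 12 cell cycle genes was 1956 ± 58.1 CPM in WT and 1152 ± 155 CPM in *Aff3ir-ORF2*-/- MEFs. Of the endothelial markers, *Kdr*, *Vwf* and *Erg* were called higher and *Cdh5* lower, and of the skeletal muscle markers only *Des* was called, with 10.9 CPM in WT and 48.1 CPM in *Aff3ir-ORF2*-/- MEFs. In bulk RNA a change in the number of cells of a type and a change in RNA per cell cannot be told apart, and the part of these marker differences in the results below was not tested.

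Genes of glycolysis and the hypoxia response were mostly higher in the *Aff3ir-ORF2*-/- libraries. Of the 41 genes, 39 had a fold change above 1 and 12 passed both thresholds upward, an adjusted p under 0.05 and a change of at least 1.5-fold in edgeR's quasi-likelihood test. Among all 13075 tested genes, 1851 (14.2%) passed upward and 951 (7.27%) downward, or 21.4% in either direction. As the 41 were chosen with earlier results known, the shares describe them and do not test them as a set. The 12 were *Pfkl*, *Eno2*, *Ldha*, *Slc16a3* and *Pdk1* of the 21 glycolysis genes, and *Epas1*, *Egln3*, *Car9*, *Bnip3*, *Adm*, *Ankrd37* and *Ddit4* of the 20 hypoxia genes. In the other direction 0 genes passed both thresholds in edgeR, 1 (*Hk2*) had an unadjusted p under 0.05, DESeq2 called 0 and limma voom called 1 (*Ndrg1*). The median log2 fold change was 0.42 over the 41 genes, 0.36 over the glycolysis genes and 0.50 over the hypoxia genes, beside 0.0056 over all tested genes.

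Most of the remaining genes moved by a smaller step. With the adjusted p alone, 30 of the 41 genes were higher and 1 was lower in *Aff3ir-ORF2*-/- MEFs, where 29.3% of all tested genes were higher and 27.5% lower, 56.8% in total. In 31 genes every *Aff3ir-ORF2*-/- library lay above every WT library, in 1 gene every one lay below, and in 9 the genotypes overlapped. Over all tested genes, 33.3% had all *Aff3ir-ORF2*-/- libraries above, 32.7% had all below, and 66.0% had no overlap in either direction. All 41 genes passed the filter on low counts, and 38 of them had all 3 WT libraries over its cutoff of 0.557 CPM. The exceptions were *Car9*, *Ankrd37* and *Ndufa4l2*, and the WT libraries of *Car9* and *Ankrd37* alone would not have passed.

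**Figure D1:**
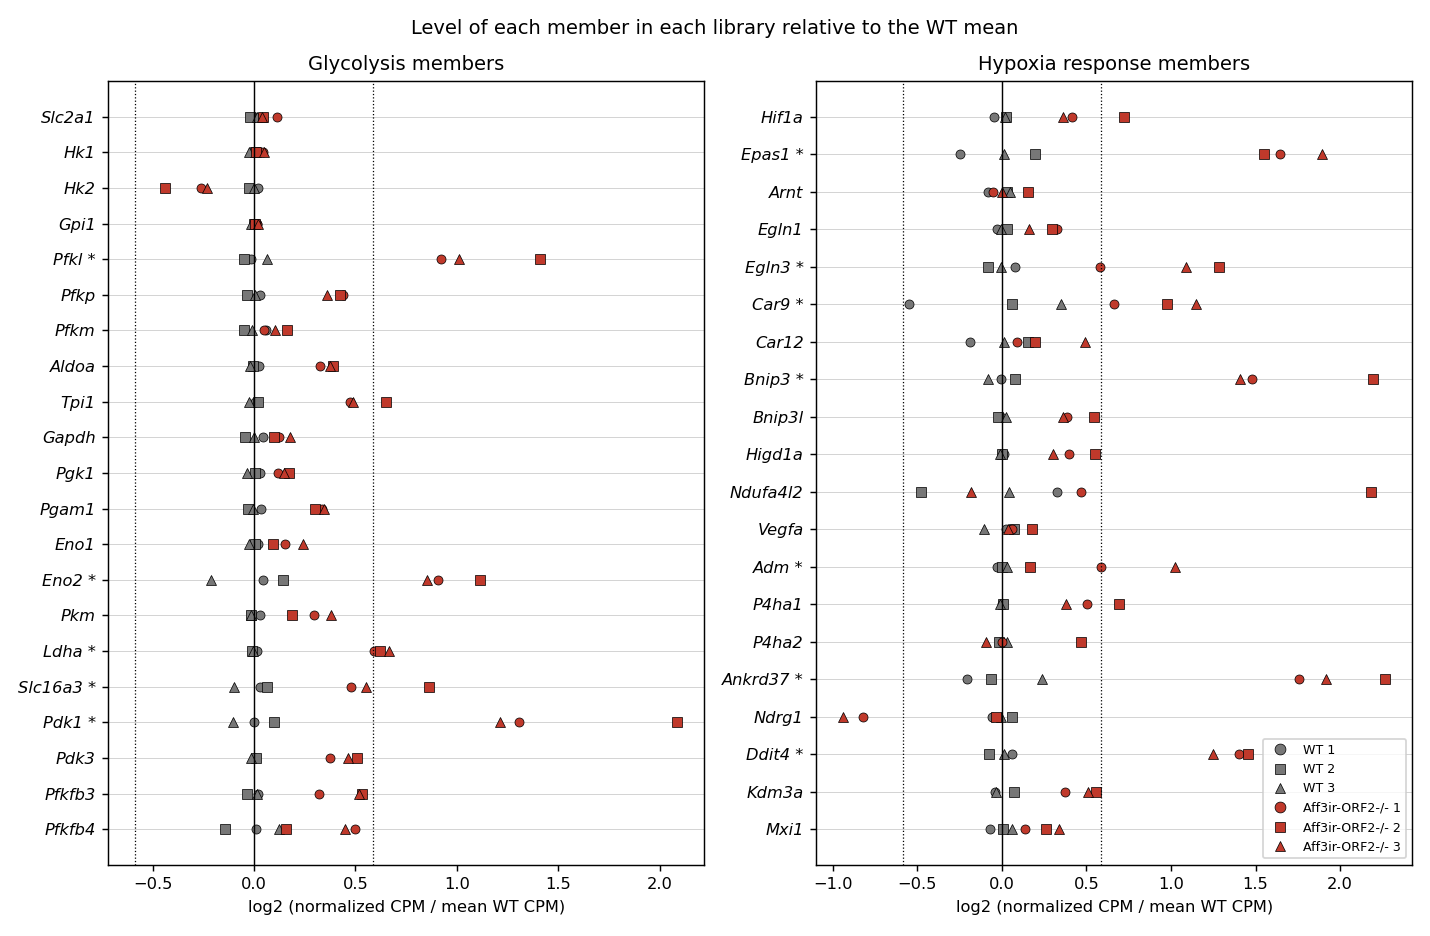
Level of each of the 41 genes in each library, as the log2 ratio of its normalized CPM to the mean CPM of the 3 WT libraries. Grey symbols are WT and red symbols *Aff3ir-ORF2*-/- libraries, circles, squares and triangles mark replicates 1, 2 and 3, dotted lines mark a 1.5-fold change, and an asterisk marks the 12 genes past both thresholds. The red symbols lie to the right of the grey ones in 31 genes and to the left only in *Hk2*.

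The first steps of glucose use did not pass the thresholds upward. *Slc2a1*, the main glucose transporter of fibroblasts, had 2854, 2859 and 2911 counts in WT against 3247, 3168 and 3107 in *Aff3ir-ORF2*-/- libraries, a log2 fold change of 0.07 (SE 0.04, adjusted p = 0.208). *Hk1*, the widely expressed hexokinase that phosphorylates glucose, had a log2 fold change of 0.04 with overlapping genotypes. *Hk2*, the hexokinase that many cells induce with growth signals and low oxygen, went the other way, with 2450, 2425 and 2451 counts in WT against 2130, 1926 and 2190. Its level fell by 0.31 on the log2 scale (SE 0.06, adjusted p = 0.00135), less than 1.5-fold, and every *Aff3ir-ORF2*-/- library was below every WT library. The ratio of *Hk2* to *Hk1* counts was 1.13 ± 0.0215 in WT and 0.888 ± 0.0545 in *Aff3ir-ORF2*-/- libraries.

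In the enzymes from glucose phosphate isomerase to pyruvate kinase, 2 of 12 (16.7%) passed both thresholds, a share near the 14.2% of all tested genes, and 10 of 12 (83.3%) were higher by the adjusted p alone, beside 29.3% of all tested genes. *Pfkl*, the liver-type isoform of phosphofructokinase, which catalyses the committed step of glycolysis, had 871, 867 and 932 counts in WT against 1761, 2526 and 1886 in *Aff3ir-ORF2*-/- libraries. The groups did not overlap and KO2 was the highest library, with a log2 fold change of 1.13 (SE 0.13, adjusted p = 0.000363). The platelet-type isoform *Pfkp* rose by less than 1.5-fold (log2 fold change 0.41, SE 0.05, adjusted p = 7.89e-05), and the muscle-type isoform *Pfkm* had overlapping genotypes (0.11, SE 0.06, adjusted p = 0.154). On the scale of CPM per kilobase of the longest coding transcript, the 3 isoforms stood at 13.7, 13.2 and 10.6 in WT for *Pfkl*, *Pfkp* and *Pfkm*, and at 29.9, 17.6 and 11.4 in *Aff3ir-ORF2*-/- MEFs. With the union of all exons as the length, *Pfkl* was also the highest isoform in *Aff3ir-ORF2*-/- MEFs (16.7, 5.43 and 9.85), but in WT the order changed, to 7.65, 4.09 and 9.15.

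*Eno2*, the gamma enolase best known from neurons, had 307, 336 and 261 counts in WT against 590, 697 and 572 in *Aff3ir-ORF2*-/- libraries. This was a 1.95-fold difference without overlap (log2 fold change 0.96, SE 0.10, adjusted p = 5.30e-05). *Eno1*, which encodes the enolase found in nearly all cells, had 22247, 22524 and 21906 counts against 25785, 25323 and 27670. It differed by 1.12-fold (log2 fold change 0.16, SE 0.05, adjusted p = 0.0208), so the *Eno2* to *Eno1* count ratio went from 0.0135 ± 0.00152 to 0.0237 ± 0.0035. *Eno1* stayed far more abundant in both genotypes, at 629 and 704 CPM per kilobase against 6.18 and 12.04 for *Eno2*.

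The other enzymes of the lower pathway differed by less than 1.5-fold. *Pkm*, pyruvate kinase, had 38963, 38621 and 38298 counts in WT against 49509, 47034 and 52834 in *Aff3ir-ORF2*-/- libraries (log2 fold change 0.29, SE 0.06, adjusted p = 0.00183). *Gapdh*, which oxidises glyceraldehyde phosphate, had 40872, 39255 and 40231 against 45634, 45853 and 47732 (0.13, SE 0.05, adjusted p = 0.0404). The genotypes did not overlap in either gene, but *Gapdh* differed by 1.10-fold only and missed the adjusted threshold in 7 of the 15 alternative analyses, where *Eno1* missed it in 4 and *Pgk1* in 2. *Pgk1*, the first ATP-yielding kinase of the pathway, had 12543, 12599 and 12151 counts against 14079, 14952 and 14509 (0.15, SE 0.04, adjusted p = 0.0168). *Tpi1*, triose phosphate isomerase, had the largest change of those under 1.5-fold, 0.54 (SE 0.05, adjusted p = 3.18e-05), followed by 0.36 for *Aldoa*, an aldolase, and 0.33 for *Pgam1*, a phosphoglycerate mutase. *Gpi1*, the isomerase at the top of the group, had a log2 fold change of 0.01 (SE 0.04, adjusted p = 0.773). The 12 enzymes together took 8503 ± 149 CPM in WT and 9994 ± 286 CPM in *Aff3ir-ORF2*-/- libraries (SD, n = 3).

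At the end of the pathway, *Ldha*, *Slc16a3*, *Pdk1* and *Pdk3* were all higher by the adjusted p in *Aff3ir-ORF2*-/- MEFs, the first 3 past both thresholds. *Ldha*, the lactate dehydrogenase subunit that favours lactate formation, had 12482, 12504 and 12449 counts in WT against 19620, 20519 and 20815 in *Aff3ir-ORF2*-/- libraries. The libraries of each genotype were tightly grouped, and the difference was 1.54-fold (log2 fold change 0.63, SE 0.04, adjusted p = 4.34e-06). *Slc16a3* encodes the lactate exporter MCT4 and had 943, 986 and 876 counts in WT against 1360, 1815 and 1444 (0.64, SE 0.10, adjusted p = 0.00095). KO2 was its highest library, and without KO2 its log2 fold change was 0.51, under the 1.5-fold threshold. *Slc16a1*, the lactate transporter MCT1, is not among the 41 and is named after its values were seen. It went the other way, with 1437, 1482 and 1436 counts in WT against 1106, 1259 and 1106, lower in every *Aff3ir-ORF2*-/- library by less than 1.5-fold (-0.41, SE 0.05, adjusted p = 0.000188). Per kilobase of the longest coding transcript, *Aldoa* and *Ldha* were close in WT, at 405 ± 6.16 and 394 ± 3.84 CPM, and *Ldha* was above *Aldoa* in *Aff3ir-ORF2*-/- MEFs, at 608 ± 15.8 against 521 ± 12.9. With the union of exons both stood at 216 in WT, and at 334 and 277 in *Aff3ir-ORF2*-/- MEFs.

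*Pdk1* encodes a kinase that switches off pyruvate dehydrogenase and so keeps pyruvate out of the mitochondrial citric acid cycle. It had 175, 191 and 165 counts in WT against 458, 804 and 432 in *Aff3ir-ORF2*-/- libraries. No library overlapped between genotypes, KO2 had 1.77 times the mean CPM of KO1 and KO3, and the fold change was 3.02 (log2 1.59, SE 0.27, adjusted p = 0.00387). Without KO2 the log2 fold change was 1.26 and the call remained. *Pdk3*, a kinase of the same family, rose by less, 1.37-fold (log2 0.45, SE 0.06, adjusted p = 0.00017), and the *Pdk3* to *Pdk1* count ratio went from 2.58 ± 0.157 in WT to 1.25 ± 0.345. *Pfkfb3* and *Pfkfb4*, whose enzymes set the level of the activator of phosphofructokinase, had log2 fold changes of 0.46 (SE 0.07, adjusted p = 0.00032) and 0.38 (SE 0.12, adjusted p = 0.0258), both under 1.5-fold.

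**Figure D2:**
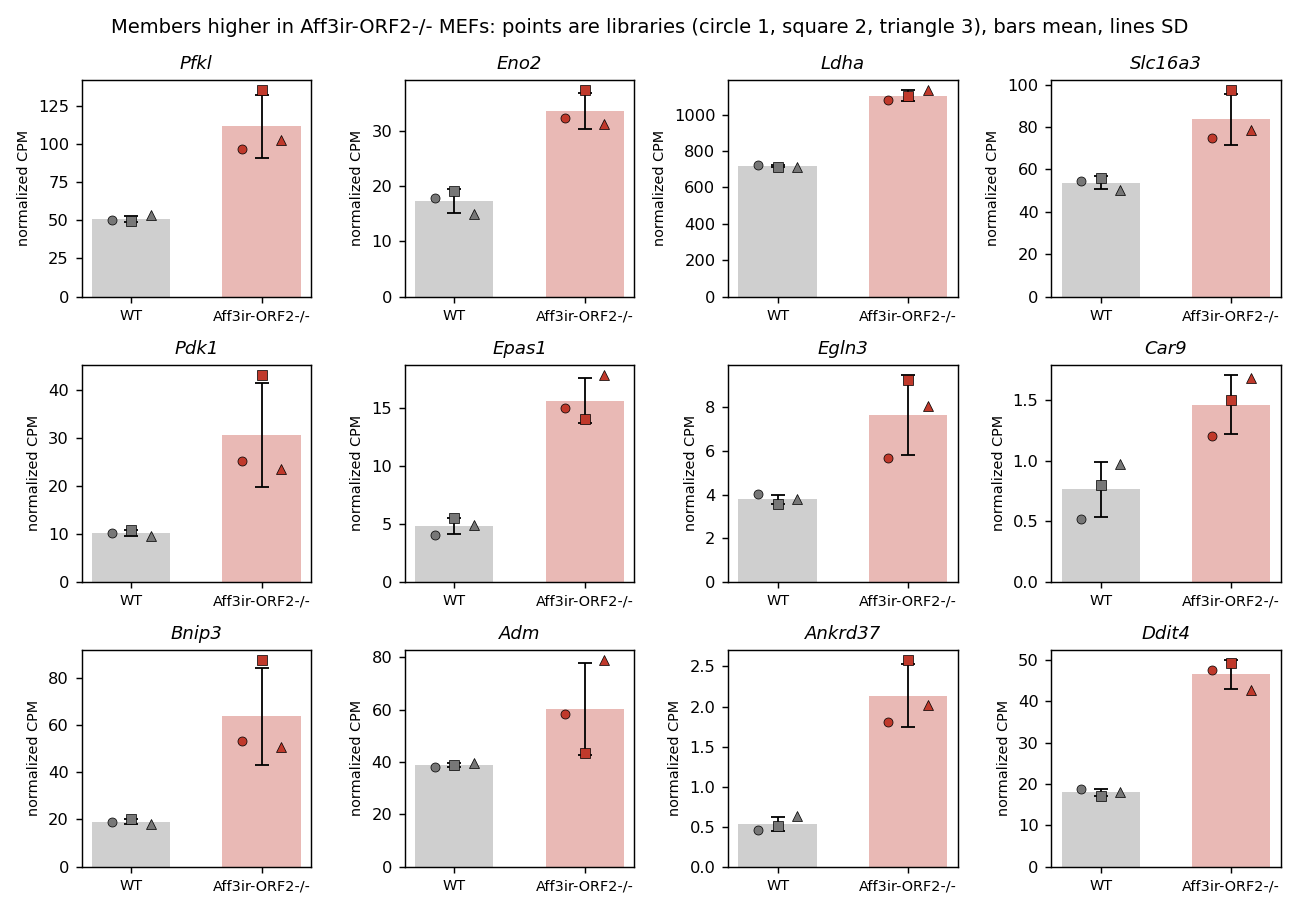
Normalized CPM of the 12 genes past both thresholds, with 1 panel per gene and its own vertical axis from 0. Bars are means of 3 libraries, lines are SDs, and circles, squares and triangles are replicates 1, 2 and 3. In every panel the 3 red *Aff3ir-ORF2*-/- points lie above the 3 grey WT points, and the square of KO2 is the highest in 8 of the 12.

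Among the HIF subunits, the change was largest in *Epas1*, which encodes HIF-2 alpha, a subunit best known from endothelial and kidney interstitial cells. *Epas1* had 70, 97 and 85 counts in WT against 274, 263 and 328 in *Aff3ir-ORF2*-/- libraries. The groups were far apart, a 3.25-fold difference (log2 fold change 1.70, SE 0.14, adjusted p = 9.93e-06). *Hif1a*, the subunit present in nearly all cells, had 5824, 6252 and 6195 counts in WT against 8479, 10753 and 8244 in *Aff3ir-ORF2*-/- libraries (0.51, SE 0.09, adjusted p = 0.00168), an increase of 1.42-fold without overlap. *Arnt*, their common partner, had 1283, 1415 and 1425 counts against 1384, 1636 and 1449, with overlapping genotypes (0.04, SE 0.06, adjusted p = 0.631). Even after its rise *Epas1* was the rarer alpha subunit mRNA, at 2.84 CPM per kilobase against 105 for *Hif1a*, from 0.873 and 73.9 in WT.

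Of the prolyl hydroxylase genes of the Egln family among the 41, both were higher by the adjusted p, but a further one outside the 41 was not. *Egln3*, a prolyl hydroxylase that is itself a HIF target, had 69, 63 and 66 counts in WT against 103, 172 and 148 in *Aff3ir-ORF2*-/- libraries, a 2.02-fold difference without overlap (log2 fold change 1.01, SE 0.19, adjusted p = 0.00125). *Egln1*, the main oxygen sensor of the family, had 1147, 1218 and 1178 counts against 1547, 1549 and 1392. It was higher in every *Aff3ir-ORF2*-/- library, by 1.20-fold (0.26, SE 0.05, adjusted p = 0.00235). *Egln2*, the remaining prolyl hydroxylase of HIF, and *Hif1an*, an asparaginyl hydroxylase, come from the longer list of regulators and are named after their values were seen. Both had overlapping genotypes, with log2 fold changes of -0.08 (SE 0.05, adjusted p = 0.207) and 0.07 (SE 0.06, adjusted p = 0.327). The *Egln3* to *Egln1* count ratio was 0.056 ± 0.00422 in WT and 0.0946 ± 0.0244 in *Aff3ir-ORF2*-/- libraries.

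The carbonic anhydrases, which buffer acid at the cell surface, were expressed at a low level. *Car9* had 9, 14 and 17 counts in WT against 22, 28 and 31 in *Aff3ir-ORF2*-/- libraries. The groups did not overlap and the fold change was 1.91 (log2 0.93, SE 0.30, adjusted p = 0.0221), but at these counts the call was lost in DESeq2 (adjusted p = 0.0859) and without WT1, WT2 or KO3 (adjusted p = 0.0891, 0.0604 and 0.0636). *Car12* had 61, 79 and 71 counts against 78, 86 and 104, with overlapping genotypes (0.27, SE 0.16, adjusted p = 0.186).

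*Bnip3* encodes a mitochondrial outer membrane protein that drives mitophagy and had 328, 354 and 315 counts in WT against 968, 1626 and 927 in *Aff3ir-ORF2*-/- libraries. KO2 had 1.68 times the mean CPM of KO1 and KO3, all 3 lay above WT, and the fold change was 3.34 (log2 1.74, SE 0.24, adjusted p = 0.00186). Without KO2 it was 1.44 on the log2 scale and still called. Its relative *Bnip3l* rose by 1.35-fold (0.43, SE 0.06, adjusted p = 0.000143), and the *Bnip3l* to *Bnip3* count ratio went from 4.01 ± 0.282 to 1.70 ± 0.368. In WT, *Bnip3* stood at 10.9 and *Bnip3l* at 23.4 CPM per kilobase, and in *Aff3ir-ORF2*-/- MEFs at 36.2 ± 11.7 and 31.6 ± 2.20, a gap smaller than the SD of *Bnip3*. *Higd1a*, a mitochondrial inner membrane protein of the hypoxia response, rose by 0.42 on the log2 scale (SE 0.07, adjusted p = 0.000664). *Ndufa4l2*, which encodes a HIF-induced relative of a respiratory chain subunit, had 12, 7 and 10 counts in WT against 14, 47 and 9 in *Aff3ir-ORF2*-/- libraries. Only KO2 stood out there, and the adjusted p was 0.157.

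The secreted factors were less uniform. *Vegfa*, the main growth factor for vessels, had 2436, 2564 and 2254 counts in WT against 2633, 2923 and 2611 in *Aff3ir-ORF2*-/- libraries, with overlapping genotypes on the CPM scale (log2 fold change 0.09, SE 0.06, adjusted p = 0.202). *Adm*, which encodes the vasodilator peptide adrenomedullin, had 657, 682 and 692 counts in WT against 1064, 811 and 1447 in *Aff3ir-ORF2*-/- libraries. Its fold change was 1.55 (log2 0.63, SE 0.22, adjusted p = 0.0493), the *Aff3ir-ORF2*-/- libraries differed widely, and here KO2 was the lowest. *Adm* was called in 9 of 15 alternatives and lost without any of WT1, WT2, WT3 and KO1 (adjusted p = 0.0992, 0.108, 0.103 and 0.0935), without KO3 (log2 fold change 0.39) and with no filter on low counts (adjusted p = 0.108). *P4ha1*, a prolyl hydroxylase subunit for collagen, rose by 1.45-fold (0.53, SE 0.07, adjusted p = 0.000231), while its paralog *P4ha2* had 1787, 1810 and 1861 counts in WT against 1899, 2695 and 1797 in *Aff3ir-ORF2*-/- libraries and did not pass (0.15, SE 0.15, adjusted p = 0.43). Without KO2 the *P4ha2* difference was -0.05.

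Of the remaining hypoxia-induced genes, *Ankrd37*, an ankyrin repeat protein gene induced by HIF, had the largest fold change of the 41. It had 8, 9 and 11 counts in WT against 33, 48 and 37 in *Aff3ir-ORF2*-/- libraries, a 3.95-fold difference (log2 1.98, SE 0.28, adjusted p = 0.000235). Only 1 of its WT libraries was over the cutoff of the filter on low counts. *Ddit4*, which encodes REDD1, an inhibitor of mTORC signalling induced by hypoxia and other stress, had 323, 300 and 317 counts in WT against 865, 919 and 784 in *Aff3ir-ORF2*-/- libraries. The groups were well apart, with a fold change of 2.59 (log2 1.37, SE 0.07, adjusted p = 1.29e-06). *Kdm3a*, a histone demethylase, and *Mxi1*, a MYC antagonist, differed by 1.40-fold and 1.19-fold (log2 0.48 and 0.25, adjusted p = 0.000174 and 0.0274).

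*Ndrg1*, a stress-induced gene often used as a marker of hypoxia, went against the other genes of its group. It had 756, 838 and 795 counts in WT against 470, 831 and 438 in *Aff3ir-ORF2*-/- libraries. KO1 and KO3 were well below every WT library while KO2 lay among them, and the log2 fold change was -0.54 (SE 0.25, adjusted p = 0.115). Without KO2 it was -0.88 with an adjusted p of 8.47e-09, past both thresholds. limma voom, which lets the genotypes differ in spread, gave -0.59 with an adjusted p of 0.0072, and edgeR without robust estimation of the spread gave an adjusted p of 0.0459.

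**Figure D3:**
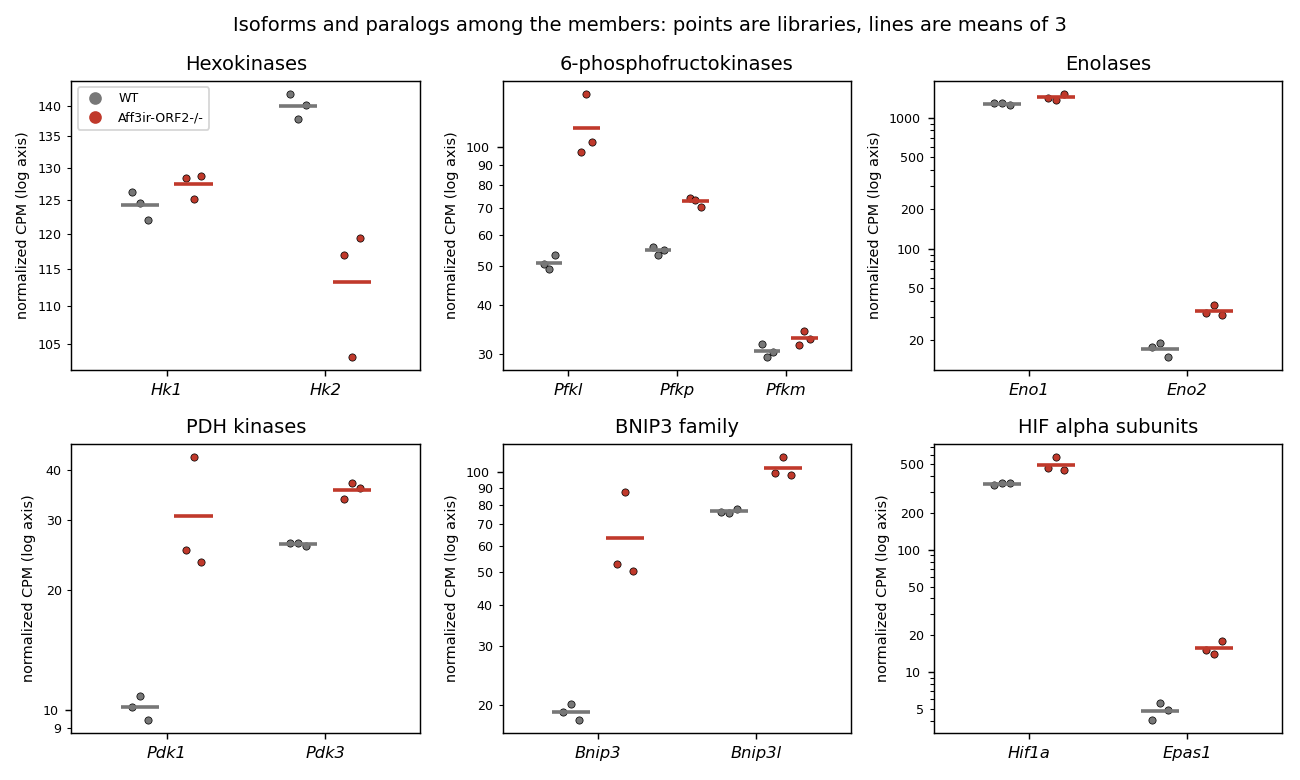
Normalized CPM of related genes in each library on log axes, with WT in grey and *Aff3ir-ORF2*-/- in red, points for libraries and lines for means of 3. CPM is not corrected for length, so colours are to be compared within a gene. *Pfkl*, *Eno2*, *Pdk1*, *Bnip3* and *Epas1* have the larger gaps between colours in their panels, and *Hk2* alone has red below grey.

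The *Aff3ir-ORF2*-/- libraries varied more than the WT libraries. The median coefficient of variation over the 41 genes was 2.87% in WT and 7.59% in *Aff3ir-ORF2*-/- libraries, beside 4.39% and 7.69% over all tested genes. KO2 was the highest *Aff3ir-ORF2*-/- library in 24 of the 41 genes (58.5%), beside 36.5% of all tested genes and 44.9% of all genes called higher. KO1 was the lowest of the 3 in 6 of the 12 called genes and in 51.4% of all genes called higher. The macrophage marker sum was lowest in KO1 and highest in KO3, and its part in the order of the libraries was not tested. Without KO2, 11 of the 41 genes were called higher and 1 lower, beside 13.7% and 7.63% of 13169 tested genes.

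The region just upstream of these genes was searched for the letters ACGTG and GCGTG, the core to which HIF binds, on both strands of the 250 bases before each RefSeq transcription start (GRCm38.p6). Of the 41 genes, 37 had a promoter entry, and *Epas1*, *Bnip3l*, *Ndufa4l2* and *Ndrg1* had none. At least 1 of the motifs was found in 33 of the 37 genes (89.2%), beside 60.9% of 10425 tested genes with an entry and 41.5% of all 27025 genes with one. ACGTG alone was found in 22 of 37 (59.5%), beside 24.9% of tested and 18.5% of all genes. A gene with several starts had several windows. Counted per start, either motif stood before 75.9% of the starts of these genes and 54.7% of those of tested genes. For ACGTG the shares per start were 48.1% and 21.2%. Among the genes past both thresholds 7 of 11 (63.6%) had ACGTG, and among the others 15 of 26 (57.7%). The median GC content of these windows was 62.8% for the 37 genes and 60.0% for the tested genes, and the part of base composition in the counts of matches was not tested. A match is a run of letters and not a binding site. The 41 were drawn in part from known hypoxia-induced genes, so these shares describe the choice of genes and not the libraries.

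Shown here are the called genes with 2 or more ACGTG matches and, for contrast, *Eno2*, called without a match of either motif. They were picked after the matches were known. Each is the 250 bases before the start, 5′ to 3′ on the gene's own strand, and capitals mark the matches, where the palindrome CACGTG counts on both strands. They lie at chr7:46845554-46845803 on the plus strand (*Ldha*), chr11:120948817-120949066 on the plus strand (*Slc16a3*), chr7:138909507-138909756 on the minus strand (*Bnip3*), chr8:45999851-46000100 on the minus strand (*Ankrd37*) and chr6:124769674-124769923 on the minus strand (*Eno2*).
Ldha: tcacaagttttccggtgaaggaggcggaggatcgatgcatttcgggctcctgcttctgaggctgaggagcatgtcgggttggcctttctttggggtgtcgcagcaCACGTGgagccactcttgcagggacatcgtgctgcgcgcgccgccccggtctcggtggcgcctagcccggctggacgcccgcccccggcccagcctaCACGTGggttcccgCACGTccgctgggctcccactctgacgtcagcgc
Slc16a3: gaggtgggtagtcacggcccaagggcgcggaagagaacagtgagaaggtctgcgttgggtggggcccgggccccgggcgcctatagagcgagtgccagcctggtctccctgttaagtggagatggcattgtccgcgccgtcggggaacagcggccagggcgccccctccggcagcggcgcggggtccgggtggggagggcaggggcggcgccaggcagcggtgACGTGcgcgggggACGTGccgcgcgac
Bnip3: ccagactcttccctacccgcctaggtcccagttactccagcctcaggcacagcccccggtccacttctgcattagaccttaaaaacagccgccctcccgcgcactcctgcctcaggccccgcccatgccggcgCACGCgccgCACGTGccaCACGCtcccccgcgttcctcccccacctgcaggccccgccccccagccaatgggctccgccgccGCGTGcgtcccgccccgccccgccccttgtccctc
Ankrd37: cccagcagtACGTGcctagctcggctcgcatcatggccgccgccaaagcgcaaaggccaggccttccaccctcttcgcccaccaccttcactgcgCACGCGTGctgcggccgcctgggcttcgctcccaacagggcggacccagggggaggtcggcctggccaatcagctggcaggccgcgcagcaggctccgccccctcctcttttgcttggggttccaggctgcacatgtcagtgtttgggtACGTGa
Eno2: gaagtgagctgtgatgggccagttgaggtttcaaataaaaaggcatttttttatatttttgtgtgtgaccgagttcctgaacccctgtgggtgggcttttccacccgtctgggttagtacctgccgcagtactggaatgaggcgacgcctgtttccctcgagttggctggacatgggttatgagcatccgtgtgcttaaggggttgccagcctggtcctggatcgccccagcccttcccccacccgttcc
Counted on both strands, the *Ldha* window holds 5 matches of ACGTG, the *Slc16a3* window 2, both near the start, *Bnip3* 2 with 3 of GCGTG, and *Ankrd37* 2 with 2 of GCGTG. A second annotated start of *Ldha* has 1 match of GCGTG and none of ACGTG.

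Other genes of the same pathways were taken from longer lists, which were also chosen with earlier results of these data known. Of 54 tested hypoxia-induced genes outside the 41, 24 (44.4%) were higher and 2 (3.70%) lower past both thresholds, beside 14.2% and 7.27% of all tested genes, with a median log2 fold change of 0.40. By adjusted p the first were *Rragd* (1.86), *Cxcr4* (4.77), *Ccng2* (1.22), *Ak4* (1.23), *Angptl4* (1.67) and *Angpt2* (1.05). *Cxcr4*, a chemokine receptor, went from 5, 6 and 2 counts in WT to 117, 116 and 151. Its WT libraries were under the cutoff of the filter on low counts, as were those of the called *Ppp1r3c* and *Fgf11*. These genes were tested only through their *Aff3ir-ORF2*-/- libraries. The lower genes were *Edn1* (-1.29), the precursor of endothelin, and *Flt1* (-0.83), a VEGF receptor. Of the abundant genes in the list, *Lox* (0.78) and *Loxl2* (0.62), which crosslink collagen, passed upward. *Anxa2* (-0.26) was lower by the adjusted p (0.00141) but by less than 1.5-fold.

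Of 31 further glycolysis and pyruvate genes, 9 (29.0%) were higher and 1 (*Pfkfb1*, 3.23%) was lower, with a median of 0.11. *Hk3*, a hexokinase of myeloid cells that also stands in the macrophage list, had 4, 1 and 1 counts in WT against 250, 352 and 385 in *Aff3ir-ORF2*-/- libraries. It too passed the filter on low counts only through the latter. The same held for the called *Slc2a12*, with 9, 5 and 9 counts in WT against 12, 19 and 17. The WT libraries of the called *Pgam2*, with 9, 9 and 12 counts, would not have passed alone. *Pdk4* (1.86), *Slc2a6* (0.78), *Slc2a10* (0.75), *Pdp2* (0.64) and *Bpgm* (0.62) were also higher. The abundant *Pdha1* (-0.08), *Dlat* (-0.16), *Gpd2* (-0.30) and *Pgam5* (-0.37) did not pass both thresholds. In each of them every *Aff3ir-ORF2*-/- library lay below every WT library. *Dlat*, *Gpd2* and *Pgam5* were lower by the adjusted p (0.0304, 0.00622 and 0.000515). In this list 38.7% were higher and 22.6% lower by the adjusted p alone, beside 29.3% and 27.5% of all tested genes. Of 26 tested regulators of HIF and of the MYC network, 2 (7.69%) were higher and 3 (11.5%) lower, with a median of -0.08. Among all tested genes the shares were 14.2% and 7.27%. By the adjusted p alone 30.8% of the regulators were higher and 42.3% lower, beside 29.3% and 27.5% of all tested genes. *Vhl*, the substrate receptor of the ligase that destroys the alpha subunits, was higher (0.63, SE 0.07, adjusted p = 8.0e-05), as was *Mxd4* (0.90). Without KO2 *Vhl* was at 0.58, just under the 1.5-fold threshold. *Myc*, a transcription factor that also drives glycolytic genes, had 2607, 2484 and 2479 counts in WT against 1153, 979 and 1067 in *Aff3ir-ORF2*-/- libraries (-1.32, SE 0.07), and *Siah1b* (-1.20) and *Mxd3* (-0.82) were lower too. The chaperones *Hsp90ab1* (-0.24) and *Hsp90aa1* (-0.38), *Rack1* (-0.25) and *Os9* (0.26) were under the fold threshold. Without KO2 the counts of higher and lower genes were 21 and 2 of 54, 7 and 1 of 32, and 1 and 3 of 26. The genes that lost their call were *Loxl2* (0.47), *Fam162a* (0.58) and *Sap30* (0.55) in the first list, *Bpgm* (0.51) and *Slc2a12* (0.84, adjusted p = 0.106) in the second and *Vhl* in the last.

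**Figure D4:**
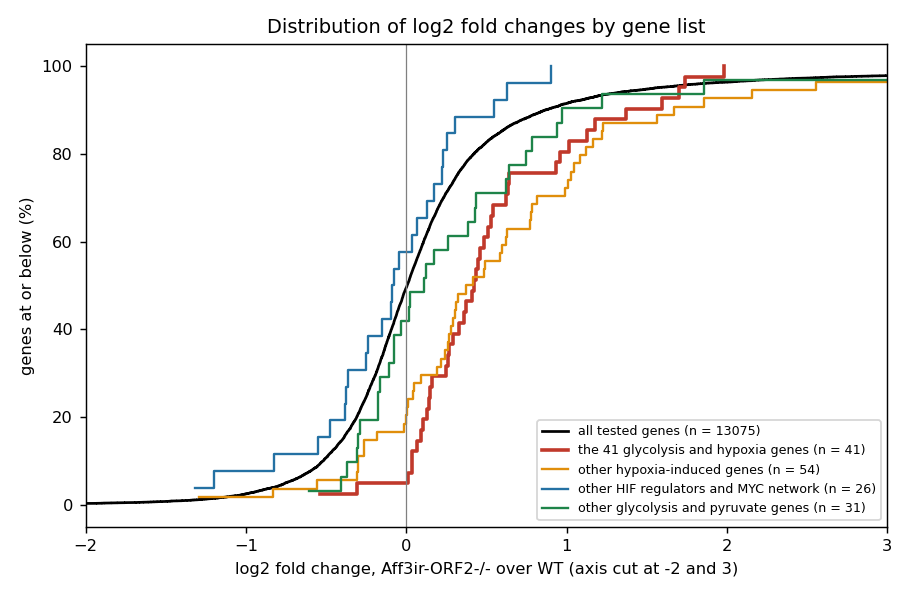
Cumulative share of genes (%) at or below each log2 fold change of *Aff3ir-ORF2*-/- over WT MEFs, for all 13075 tested genes in black, the 41 genes in red and the 3 longer pathway lists in other colours. The red curve and the curve of other hypoxia-induced genes cross 50% at 0.42 and 0.40, and the black curve at 0.0056.

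Summed over a library, the 21 glycolysis genes took 9780 ± 161 CPM in WT and 11718 ± 302 CPM in *Aff3ir-ORF2*-/- MEFs, 19.8% more. The 20 hypoxia genes took 1209 ± 19.99 and 1625 ± 170 CPM, 34.4% more, with 1543, 1821 and 1512 CPM in KO1, KO2 and KO3. Of the glycolysis sum, *Gapdh* gave 2302 CPM in WT and 2523 CPM in *Aff3ir-ORF2*-/- MEFs. *Pkm* gave 2216 and 2707 CPM, and *Ldha* 716 and 1104 CPM. For 11 of the 41 genes a near-identical sequence (95% over at least 200 bases) exists elsewhere in the annotation, most often for *Gapdh* (90 genes, 85 of them pseudogenes), and also for *Bnip3*, *Ldha*, *Pgk1* and *Eno1*. Exons of 16 genes overlap a gene on the opposite strand, among them *Bnip3*, *Ankrd37*, *Car9* and *Ndrg1*. How the counting treated shared or antisense reads is not given in the sources used here, so the counts of these genes carry that uncertainty.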

How the data were processed

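MEF libraries of the genotypes WT and *Aff3ir-ORF2*-/- (written AFFEir-ORF2-/- in the design text), 3 of each, had been measured by RNA-seq. The authors had paired-end DNBSEQ reads filtered with SOAPnuke and deposited an estimated count per gene and library, not normalized, for 17092 genes. The aligner and counter are not given in the sources used here. The submitters' processing notes list the build mm8. The table holds no coordinates, and promoters and lengths were taken from GRCm38 annotation (RefSeq, GENCODE) by gene ID or symbol, so gene models may differ from those counted. Between 10.6% and 11.3% of a library's values were not whole, and all were rounded.

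In edgeR 4.0.16, low genes were removed by filterByExpr with a minimum count of 10 and a minimum total of 15, libraries were scaled by TMM, and the genotypes were compared with the quasi-likelihood test with Benjamini-Hochberg adjustment over 13075 genes, without covariates, in R 4.3.3. Calls needed an adjusted p under 0.05 and at least a 1.5-fold change. Robust estimation of the spread was adopted after both counts of calls had been seen (1851 higher and 951 lower with it, 1865 and 957 without). The SE is the log2 fold change divided by the root of the F statistic. The functions were tested on simulated data. Alternatives were DESeq2 1.42.0, limma 3.58.1 voom, other scalings, filters and thresholds, the replicate number as a block, and leaving out each library. Near-identical transcripts were found with BLAST 2.17.0. The length of a gene was chosen after 3 definitions had been tried. Figures used Python 3.11.15 and matplotlib 3.10.9.

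The 41 genes and all lists were chosen with earlier results of these data known. Every one of the 41 is accounted for. Counts in every library are given for genes past both thresholds, the HIF subunits and hydroxylases, the 5 genes with the most counts and some others in their role group. Of the longer lists, up to 6 called genes by adjusted p and up to 4 by mean count are named, and others where a small count needs them. A gene that follows from this rule is not reported here.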

Additional observations from a re-analysis of the deposited data

How the results depend on the processing

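Of the values recomputed for the 41 genes under the alternatives, 573 kept their direction and side of the adjusted threshold, 31 lost the threshold, 5 gained it and 3 changed sign. The sign changes were near 0: *Gpi1* with no filter on low counts (-0.000573), and *Arnt* and *P4ha2* without KO2. Leaving out 1 library at a time, *Arnt* ranged from -0.0290 to 0.0768 and *P4ha2* from -0.05005 to 0.252. Threshold losses fell on *Gapdh*, *Pgk1*, *Eno1*, *Pfkfb4*, *Mxi1*, *Car9* and *Adm*. With a 2-fold threshold 1096 genes were higher and 317 lower, 7 of the 41 higher. With the adjusted p alone 3831 genes were higher and 3591 lower, 30 and 1 of the 41. Genes lower among the 41 numbered 1 in limma voom. Leaving out each library in turn gave 1780 to 1917 genes higher, 898 to 1030 lower, and 10 to 12 of the 41 higher and 0 to 1 lower. The cause of these shifts was not tested beyond the fewer libraries and other thresholds themselves. Scalings moved the median of all genes to at most 0.0433 on the log2 scale.

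Deviations of same-numbered libraries correlated at 0.0386, 0.0424 and 0.0145, too weakly to pair them, although each library correlated best with its own number. The replicate block gave 1854 higher and 954 lower genes and 12 and 0 of the 41. At these library totals, genes near 10 counts such as *Car9*, *Ankrd37* and *Ndufa4l2* are the least precise.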
